A study of Mus musculus with 2 samples.

Results

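The IL-6 family cytokines, their receptors and the first steps of their signal were followed through mouse limb muscle, asking which mononuclear cells carried the ligand transcripts, which carried the receptors, and how both stood in a library from mice given the drug Maraviroc (MVC) against a vehicle library (DMSO). The genes were 10 symbols matched exactly in the gene list of the count tables, all 10 of which were found among 32285 listed genes. They were the ligands Il6, Lif, Osm and Clcf1, the receptor chains Il6ra, Il6st, Lifr and Osmr, and the signalling genes Socs3 and Stat3. The animals were aged C57BL/6 mice injected intraperitoneally with the vehicle or, for a short term, with the high dose of MVC. Hindlimb muscle was digested to mononuclear cells, red cells were lysed, and live cells were sorted by dye exclusion and loaded on the 10x Chromium system. Each group was 1 library, and how many mice it pooled is not given in the sources used here. With 1 library per group no difference between DMSO and MVC could be tested. Every interval below covers counting error only, and a difference between the libraries can be a difference between the animals or the preparations.

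Cytokines of this family share a signal-transducing chain, gp130, which Il6st encodes. IL-6 first binds its own receptor chain, encoded by Il6ra, on the cell or in soluble form, whereas LIF and oncostatin M pair gp130 with the chains encoded by Lifr and Osmr. The bound receptors activate JAK kinases and the transcription factor STAT3, and STAT3 induces Socs3, an inhibitor that feeds back on gp130. In muscle, IL-6 and LIF are known for their release by non-muscle cells and by contracting fibres and for acting on satellite cells during repair.

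The DMSO library held 5812 barcodes and 39150511 unique molecular identifiers (UMIs, each standing for 1 captured transcript), and the MVC library 6047 barcodes and 36063575 UMIs. Barcodes under 500 genes or over 10% mitochondrial UMIs were dropped, leaving 5437 DMSO and 5454 MVC cells with a median of 5802 and 5195 UMIs. The libraries shared 8 barcodes among the kept cells. Clustering without the genes reported on gave 29 clusters, of which 24 were named from marker genes into 16 classes and 5 stayed unnamed (clusters 4, 18, 19, 25 and 26). Fibro-adipogenic progenitors (FAPs) are the interstitial fibroblast-like cells of muscle and muscle stem cells (MuSCs) its satellite cells. The FAP-like class held 1127 DMSO and 1338 MVC cells, the capillary endothelial cell (EC)-like class 1557 and 1238, the tenocyte-like class 439 and 475, the MuSC-like class 146 and 256, and the venous EC-like class 243 and 219. The label of mononuclear cells was met except for 14 DMSO and 24 MVC myofibre-like cells. None of the markers of the classes compared below was at 0 in its own class.

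Levels are UMIs of a gene summed over the cells of a class in 1 library, per 1000000 UMIs of those cells (CPM), with exact Poisson 95% intervals. The MVC over DMSO ratio of 2 such levels carries an exact conditional 95% interval. A ratio was called past the fold when it reached 1.5 or fell to 1/1.5 or less, over genes with at least 20 UMIs in the class, in the 15 classes or clusters with at least 50 cells in each library. Levels of different genes were not compared. Median log2 ratios of gene lists, and of all genes beside them, were taken with 10 CPM added to each level, which draws the ratios of low genes towards 0. Shares of cells with a UMI were also taken after each cell was thinned to 2000 UMIs.

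Il6 encodes IL-6 and lies on chromosome 5 (GRCm38, chr5:30013114-30019981, plus strand). Its highest level was in cluster 18, an unnamed group of 101 DMSO and 76 MVC cells led by Olfr1033, Sdc1, Ccl19 and Lgr5. Cluster 18 held 3188 CPM in DMSO (interval 3057 to 3323) and 3553 CPM in MVC (3382 to 3729), with an Il6 UMI in 91.1% and 78.9% of its cells. Of the classes with at least 50 cells in each library, venous EC-like cells followed at 1266 (1217 to 1316) and 1399 CPM (1342 to 1458), and 80.7% and 73.1% of them had a UMI. Both held slightly more of it in MVC, with ratios of 1.11 (1.05 to 1.19) and 1.11 (1.04 to 1.17) that stayed inside the fold.

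By number of transcripts the main source was the FAP-like class, which gave 43.3% of all Il6 UMIs in DMSO and 47.9% in MVC, against 12.9% and 13.6% from venous EC-like cells, 12.8% and 11.5% from tenocyte-like cells and 11.4% and 9.81% from cluster 18. FAP-like cells held 677 CPM in DMSO (662 to 691) and 597 CPM in MVC (584 to 610), a ratio of 0.882 (0.855 to 0.909). The Il6 UMIs of FAP-like cells were unevenly spread, since the tenth of cells with the most held 61.5% of them in DMSO and 66.7% in MVC.

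The near-equal level of the FAP-like class joined clusters that stood on opposite sides. Cluster 1, led by Cxcl14 and Smoc2, had 311 CPM in DMSO and 170 CPM in MVC, a ratio of 0.546 (0.502 to 0.594). Cluster 3, led by interferon-inducible genes and by Ptx3, Ccl7 and Cxcl1, had the highest FAP-like level in DMSO and was alike in both libraries at 1139 and 1058 CPM (0.929, 0.891 to 0.968). In the other direction stood the clusters that Pi16, a marker of adventitial fibroblasts, helped to define. Cluster 13 (Dmkn, Sbsn) had 702 CPM in DMSO and 1203 CPM in MVC, a ratio of 1.71 (1.62 to 1.82). Cluster 16 (Pi16, Cd248) had 89.3 and 269 CPM, a ratio of 3.02 (2.44 to 3.75). The clusters also took different numbers of cells in the libraries, 406 DMSO and 640 MVC cells for cluster 1, 429 and 398 for cluster 3, 179 and 162 for cluster 13, and 113 and 138 for cluster 16.

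Tenocyte-like cells had 643 CPM of Il6 in DMSO and 477 CPM in MVC (0.742, 0.699 to 0.788). The lower value lay in their cluster 8, led by Col22a1 and Thbs4, at 707 and 429 CPM (0.606, 0.559 to 0.658), while cluster 10, led by Angptl7 and Kera, had 561 and 535 CPM (0.954, 0.872 to 1.04). As whole classes, venous EC-like cells had 1266 and 1399 CPM, arterial 210 and 310 CPM, capillary 186 and 131 CPM and lymphatic 52.8 and 31.0 CPM. Arterial and capillary class levels in DMSO had overlapping intervals (189 to 233 and 175 to 197). The capillary class joined unlike clusters, among them cluster 0 at 254 and 216 CPM and cluster 7 at 21.4 and 18.2 CPM. In DMSO cluster 0 (238 to 272) thus lay above the arterial class. Cluster 7 lay below the lymphatic class in both libraries, with overlapping intervals.

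Some Il6 ratios past the fold rested on few cells. Macrophage-like cells had 58.6 CPM in DMSO (48.2 to 70.7) and 134 CPM in MVC (119 to 151), a ratio of 2.29 (1.83 to 2.88), yet the share with a UMI was lower in MVC, at 12.9% against 20.7%, and 3 cells held 48.6% and 53.5% of the UMIs. Pericyte-like cells had 121 and 234 CPM (1.94, 1.60 to 2.35), with 42.1% and 40.1% of the UMIs in 3 cells. B cell-like cells had 76 and 88 UMIs (1.97, 1.43 to 2.71), with 92.1% and 82.95% of them in 3 cells. The FAP markers were also higher in MVC in the B cell-like class, as given with Osmr below, and their part was not tested. Assigning cells by their own markers instead of clusters brought the log2 ratio to 0.37 in macrophage-like and to -0.17 in pericyte-like cells. In Schwann-like cells, 38 UMIs in DMSO stood against 5 in MVC (0.113, 0.0347 to 0.287), with 97.4% of the DMSO UMIs in 3 cells, and the log2 ratio by own markers was -0.0046. The MuSC-like ratio of 0.591 (80.6 and 47.6 CPM) came to a log2 value of 0.11 without the 3 cells with the most UMIs in each library. Unevenness of this kind marked the classes with little Il6 and not the venous EC-like cells, where 3 cells held 11.6% and 9.94%. At the low end, 4.04% and 3.15% of Schwann-like cells had an Il6 UMI, at median depths of 4925 and 4822 UMIs.

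Lif encodes leukaemia inhibitory factor and lies beside Osm on chromosome 11 (Lif at chr11:4257557-4272514 and Osm at chr11:4236420-4241026, both plus strand), 16.5 kb apart with 0 protein-coding genes between them. FAP-like cells had 57.4 CPM of Lif in DMSO (53.3 to 61.7) and 29.1 CPM in MVC (26.3 to 32.2), so that the MVC level was 0.508 of the DMSO level (0.448 to 0.575). The share of FAP-like cells with a UMI was 15.8% (13.7% to 18.1%) and 10.9% (9.29% to 12.7%). At equal depth it was 6.42% (5.04% to 8.04%) and 4.26% (3.21% to 5.54%), with overlapping intervals. Both clusters that held most of it were lower in MVC, cluster 3 at 106 and 67.3 CPM (0.633, 0.542 to 0.739) and cluster 13 at 65.4 and 23.7 CPM (0.363, 0.260 to 0.498), while cluster 1 had 10.2 and 12.5 CPM (1.23, 0.826 to 1.85).

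In tenocyte-like cells Lif stood the other way, at 33.6 CPM in DMSO (28.1 to 39.9) and 64.7 CPM in MVC (57.0 to 73.0), a ratio of 1.92 (1.55 to 2.39). The share of these cells with a UMI was 9.79% (7.18% to 13%) and 16% (12.8% to 19.6%). Cluster 10 had 35.1 and 87.3 CPM (2.49, 1.84 to 3.41) and cluster 8 had 32.5 and 45.5 CPM (1.40, 1.02 to 1.92). Perineurial-like cells, from the sheath around nerve bundles, had 22 Lif UMIs in 37 DMSO cells and 65 in 52 MVC cells, at 65.6 and 169 CPM. Cluster 25, led by Cxcl5, Apod and Lif itself, had the highest level in DMSO, with 320 UMIs in 52 DMSO cells (645 CPM) and 17 UMIs in 19 MVC cells (149 CPM). Cluster 25 alone gave 25.4% of all Lif UMIs in DMSO and 1.97% in MVC, while tenocyte-like cells gave 10.5% and 30.2%, so the split of Lif between classes differed between the libraries by more than its total, at 32.5 and 24.3 CPM over all cells (0.746, 0.684 to 0.814). Cluster 19 had 6 and 20 UMIs (25.2 and 52.5 CPM). B cell-like cells had 2 and 10 UMIs, and 0.976% and 2.80% of the cells had a UMI at median depths of 5054 and 5375 UMIs, against 10660 and 9696 UMIs in FAP-like cells.

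Osm encodes oncostatin M, which is known as a product of activated leukocytes, and it was the sparsest ligand, with 121 UMIs in DMSO and 65 in MVC over all cells (3.12 and 1.83 CPM, a ratio of 0.586, 0.427 to 0.799). Most of its UMIs lay in leukocyte-like classes. Macrophage-like cells had 48 and 40 UMIs (25.8 and 19 CPM), neutrophil-like cells 15 and 13 (30.6 and 57.1 CPM), and T/NK-like cells 51 and 3 (29.2 and 5.86 CPM, a ratio of 0.2, 0.0400 to 0.619). Of the T/NK-like UMIs in DMSO, 86.3% came from 3 cells, and the shares of T/NK-like cells with a UMI were 4.57% and 3.28%. No Osm UMI was found in capillary, arterial, venous or lymphatic EC-like, pericyte-like, SMC-like or Schwann-like cells of either library. In capillary EC-like cells a count of 0 allows up to 0.488 CPM in DMSO and 0.694 CPM in MVC, taken as the level of 3 UMIs. Without the 3 cells with the most UMIs in each library, the log2 ratio over all cells was -0.52, which is inside the fold.

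Clcf1 encodes cardiotrophin-like cytokine factor 1, a ligand of the CNTF receptor (chr19:4214238-4223490, plus strand). On the same strand its annotated span overlaps the gene model AC109138.7, so reads of these 2 genes may not be fully separated. Its level was highest in the satellite cell class. MuSC-like cells had 219 CPM in DMSO (193 to 249) and 108 CPM in MVC (93.8 to 124), a ratio of 0.494 (0.407 to 0.598), and gave 37.1% and 46.9% of all Clcf1 UMIs. A UMI was present in 58.9% of MuSC-like cells in DMSO (50.5% to 67.0%) and 35.9% in MVC (30.1% to 42.2%). At equal depth the shares were 29.1% (21.7% to 37.3%) and 20.3% (15.5% to 25.9%), with overlapping intervals. In capillary EC-like cells, by contrast, the shares were 0.578% and 0.162%. Among the classes with at least 50 cells in each library, the next highest levels were far below, at 30.6 and 26 CPM in B cell-like, 29.8 and 15.6 CPM in T/NK-like and 29.6 and 17.8 CPM in arterial EC-like cells, whose DMSO intervals overlapped. Of the 9 classes with enough UMIs, Clcf1 was past the fold and lower in MVC in 6 and higher in 0. Some of the 6 rested on few UMIs. The interval included 1 in T/NK-like cells (52 and 8 UMIs, 0.524, 0.215 to 1.11). It also did so in lymphatic EC-like cells (15 and 5 UMIs, 0.4155, 0.118 to 1.203). Schwann-like cells had 16 and 5 UMIs. The shares of all genes that were lower in each class are given with the counts of members below. The dissociation-induced genes stood the other way in the MuSC-like class, with 21 of 39 past the fold and higher in MVC and 0 lower. Their median log2 ratio was 0.60, and 14.0% of all genes there were higher and 12.7% lower. The part of these genes in the Clcf1 result was not tested.

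**Figure D1:**
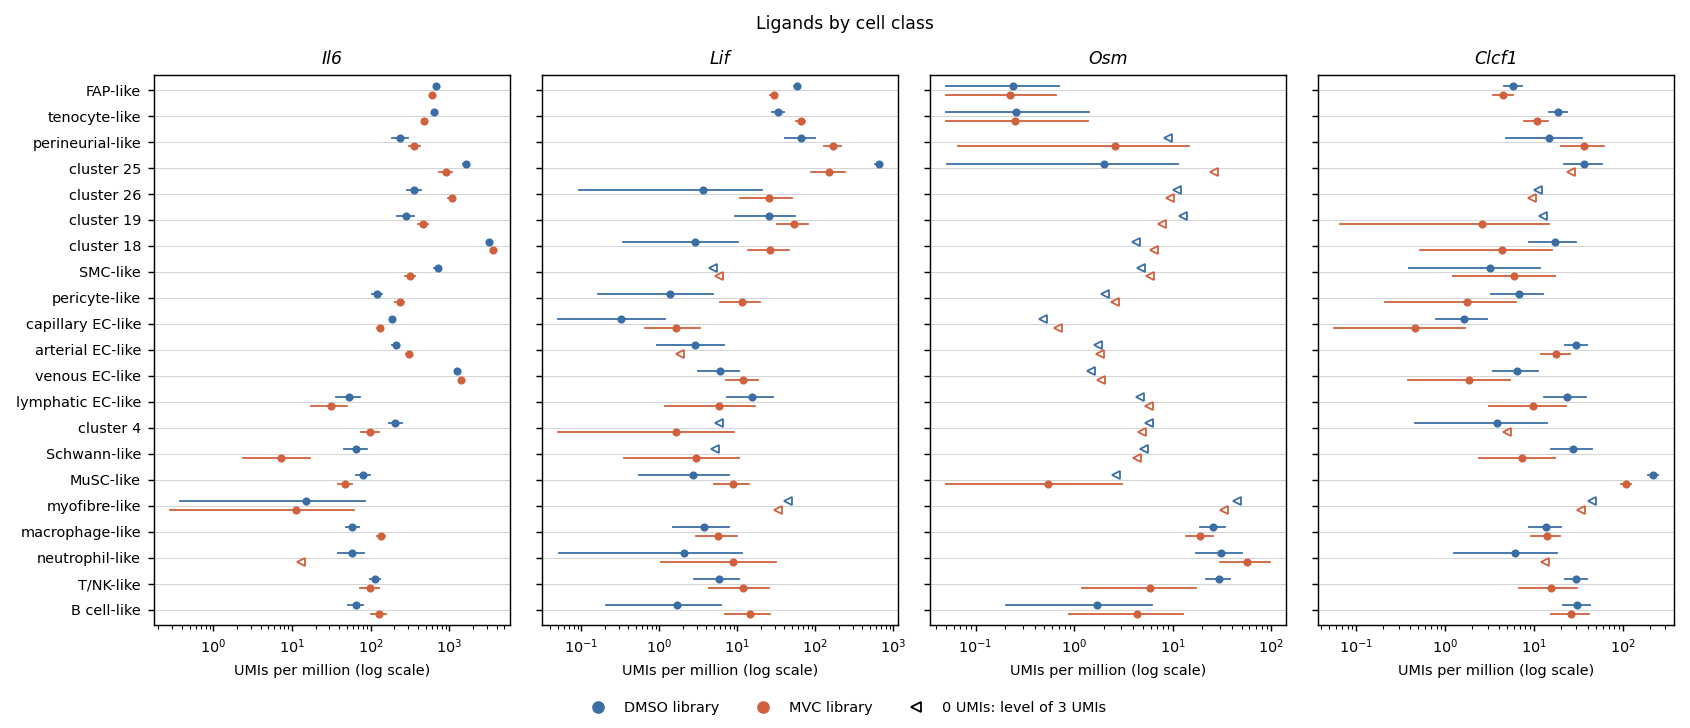
Levels of Il6, Lif, Osm and Clcf1 in each class of the DMSO and MVC libraries, in CPM on a log axis, with exact Poisson 95% intervals as bars and open triangles at the level of 3 UMIs where none was counted. Of the classes with at least 50 cells in each library, Il6 is highest in cluster 18 and venous EC-like cells. Of all classes, Clcf1 is highest in MuSC-like cells and Lif in cluster 25 in DMSO. In MVC the Lif intervals of perineurial-like cells and cluster 25, the highest there, overlap. Osm is highest in neutrophil-like cells in MVC, while in DMSO its neutrophil-like, T/NK-like and macrophage-like intervals overlap.

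The DNA just before the transcription start was read where a promoter was listed, because the ligands and Socs3 carried the differences described here. Of the 10 genes, 8 matched a promoter in the RefSeq table (GRCm38.p6). The ligand genes Osm and Clcf1 matched none, so their DNA was not searched. For the 8 genes, the 250 bases before each start were searched on both strands for the STAT motif TTCNNNGAA, the AP-1 motif TGANTCA and the NF-kB consensus. The windows of Il6, Lif and Socs3 held matches, in capitals below, and those of Il6ra, Il6st, Lifr, Osmr and Stat3 held none of these letters. Over all 32536 promoters of the table, 7.04% held the STAT motif, 6.73% the AP-1 motif and 3.92% the NF-kB consensus.
Il6, chr5:30012864-30013113, plus strand: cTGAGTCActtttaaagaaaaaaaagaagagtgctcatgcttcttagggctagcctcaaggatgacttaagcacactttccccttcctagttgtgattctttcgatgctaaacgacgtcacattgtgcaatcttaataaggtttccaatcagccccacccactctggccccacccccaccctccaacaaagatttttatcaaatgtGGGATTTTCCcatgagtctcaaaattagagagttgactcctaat
Lif, chr11:4257318-4257567, plus strand: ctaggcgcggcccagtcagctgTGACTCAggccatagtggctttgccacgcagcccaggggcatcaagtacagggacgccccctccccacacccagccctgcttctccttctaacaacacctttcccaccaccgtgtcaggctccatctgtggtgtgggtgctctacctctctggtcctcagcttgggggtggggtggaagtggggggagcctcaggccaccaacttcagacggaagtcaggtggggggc
Socs3, chr11:117969367-117969616, minus strand: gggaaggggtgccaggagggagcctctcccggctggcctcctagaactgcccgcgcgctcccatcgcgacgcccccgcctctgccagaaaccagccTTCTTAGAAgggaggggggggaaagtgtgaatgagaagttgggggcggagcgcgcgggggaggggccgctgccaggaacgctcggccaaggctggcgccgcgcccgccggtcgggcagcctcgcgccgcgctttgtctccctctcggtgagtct
In Il6, the AP-1 letters lie 249 to 243 bases before the start and the NF-kB letters 44 to 35 bases before it. In Lif the AP-1 letters lie 228 to 222 bases before the start, and in Socs3 the STAT letters lie 154 to 146 bases before it. Distances are from the RefSeq starts. The windows of Lifr, Osmr and Socs3 lie inside, and that of Lif partly inside, the GENCODE span of the gene, whose first base lies farther upstream. A match of letters is a description of the sequence and not a bound site.

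Il6st, the gp130 gene (chr13:112464070-112510086, plus strand), had a UMI in 63.1% of all DMSO cells and 61.7% of all MVC cells. Venous EC-like cells held the most at 897 CPM in DMSO (856 to 940) and 989 CPM in MVC (941 to 1039), followed in DMSO by lymphatic EC-like (562 CPM) and Schwann-like cells (521 CPM), whose intervals overlapped. In MVC the order of these was inverted, at 462 and 534 CPM, again with overlapping intervals (406 to 525 and 480 to 591). FAP-like cells were alike in both libraries at 307 and 310 CPM (1.01, 0.968 to 1.06), and capillary EC-like cells at 236 and 255 CPM (1.08). Leukocyte-like classes held little, down to 34.7 and 17.6 CPM in neutrophil-like cells. Of the 15 classes, 1 was past the fold, the T/NK-like class at 189 and 105 CPM (0.559, 0.411 to 0.747).

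Il6ra, the gene of the ligand-binding IL-6 receptor chain (chr3:89864059-89913196, minus strand, overlapped by the antisense gene Gm42809), was more restricted. FAP-like cells had 110 CPM in DMSO (104 to 116) and 114 CPM in MVC (108 to 120), and the 4 FAP-like clusters lay between 97.7 and 127 CPM in DMSO and between 106 and 140 CPM in MVC. Macrophage-like cells had 120 and 88.5 CPM (0.738, 0.604 to 0.900), neutrophil-like cells 87.8 and 101 CPM, and cluster 19, led by Egfros, Grm8 and Bmper, 247 and 181 CPM. In DMSO the FAP-like and macrophage-like levels had overlapping intervals. Endothelial levels were lower, at 11.4 and 8.56 CPM in capillary, 38.9 and 23.3 CPM in arterial and 33.5 and 50.1 CPM in venous EC-like cells. The venous EC-like cells and cluster 18, which had the most Il6, thus had less Il6ra than FAP-like cells, cluster 18 at 22.7 and 30.5 CPM (16 and 14 UMIs). FAP-like cluster 3, which was also high in Il6, had 97.7 and 120 CPM of Il6ra. Tenocyte-like cells had 39.0 CPM in DMSO and 19.6 CPM in MVC (0.504, 0.379 to 0.666), and both of their clusters were below 1/1.5, at 0.432 and 0.572. Il6ra was also past the fold and lower in MVC in T/NK-like (83.2 and 33.2 CPM, 0.399), B cell-like (0.403) and arterial EC-like cells (0.599).

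Lifr (chr15:7090614-7197489, plus strand) and Osmr (chr15:6813577-6874969, minus strand) encode the chains that pair with gp130 for LIF and oncostatin M, and lie 216 kb apart on chromosome 15 with 0 protein-coding genes between them. Lifr was highest in cluster 19 (394 CPM) and venous EC-like cells (336 CPM) in DMSO and in venous EC-like cells (370 CPM) in MVC, where cluster 19 had 165 CPM. In FAP-like cells it held 201 and 200 CPM (0.999, 0.946 to 1.06), with a gradient among the clusters that was the same in both libraries, from 312 and 290 CPM in cluster 1 through 223 and 178 CPM in cluster 16 and 168 and 135 CPM in cluster 3 to 90.3 and 78.3 CPM in cluster 13. Cluster 3, with much Lif, therefore had less Lifr than cluster 1, with little Lif. Tenocyte-like cells had 128 CPM of Lifr in DMSO (117 to 139) and 71.4 CPM in MVC (63.3 to 80.1), a ratio of 0.559 (0.482 to 0.648), and cluster 10 (156 and 79.7 CPM) and cluster 8 (106 and 64.3 CPM) both had it. So in tenocyte-like cells the ligand Lif was higher and its receptor chain Lifr lower in the MVC library, each past the fold. Lymphatic EC-like cells had 214 and 50.3 CPM (138 and 26 UMIs, 0.235, 0.148 to 0.359), and 3 cells held 57.2% and 46.2% of those UMIs.

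Osmr was carried by nearly every class outside the leukocytes. Unnamed clusters 4, 18 and 19 held 1016, 903 and 1543 CPM in DMSO, the highest levels there, and 951, 782 and 928 CPM in MVC. Clusters 4 and 19 were shallow, at median depths of 2184 and 1269 UMIs and of 4076 and 2606 UMIs, against 5802 and 5195 over all cells. Cluster 4 also had 4 capillary EC markers raised, enough for that name by the marker thresholds alone, so it is not shown to be a separate cell type. Osmr held 709 and 816 CPM in arterial, 583 and 672 CPM in capillary and 502 and 664 CPM in venous EC-like cells. It held 584 and 601 CPM in FAP-like, 497 and 503 CPM in tenocyte-like, 516 and 526 CPM in pericyte-like and 547 and 651 CPM in MuSC-like cells. All 3 blood EC-like ratios were above 1 and inside the fold, at 1.15 (1.07 to 1.25), 1.15 (1.10 to 1.21) and 1.32 (1.21 to 1.44). Macrophage-like cells had 42.0 and 38.5 CPM. The receptor for oncostatin M was thus low in the macrophage-like cells that held Osm. Schwann-like cells had 363 and 159 CPM (0.439, 0.345 to 0.556), in a class where 2 of 8 FAP markers were higher in MVC, with a summed level of 3552 CPM in DMSO and 1978 CPM in MVC and 0 markers absent. T/NK-like and B cell-like cells had ratios of 8.63 (28 and 71 UMIs) and 5.99 (21 and 74 UMIs), and 60.7% and 70.4% of the T/NK-like UMIs came from 3 cells. In those 2 classes the 8 FAP markers moved the same way, 8 of 8 higher in MVC with a summed level of 577 and 2532 CPM in T/NK-like and 247 and 3266 CPM in B cell-like cells and 0 markers absent, and cells called doublets made 5.58% and 16.4% and 6.34% and 10.3% of them. The part of the FAP markers and doublets in these ratios was not tested.

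**Figure D2:**
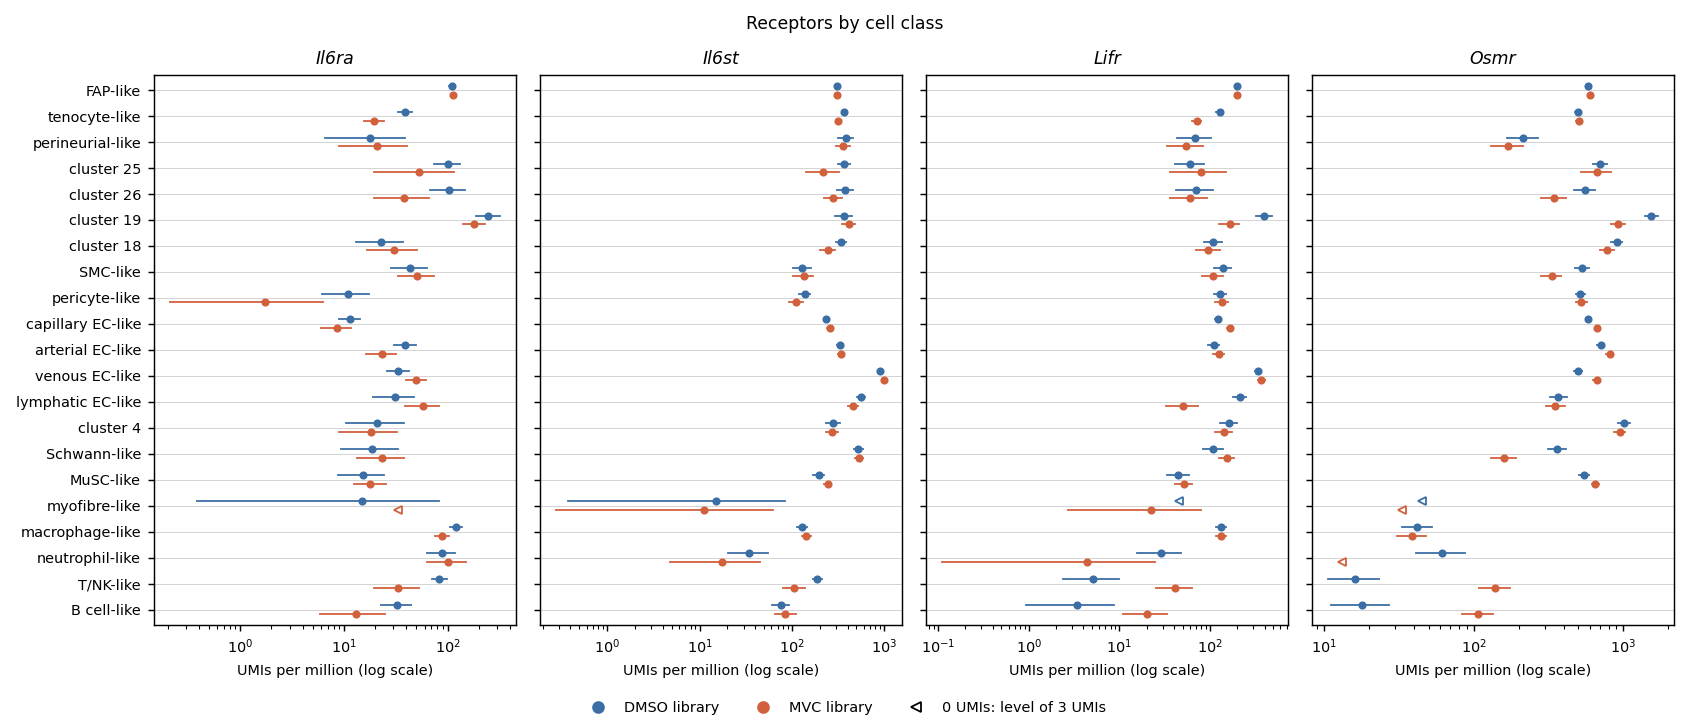
Levels of Il6ra, Il6st, Lifr and Osmr in each class of the DMSO and MVC libraries, in CPM on a log axis, with exact Poisson 95% intervals as bars. Il6st is highest in venous EC-like cells, Osmr is low in leukocyte-like classes, and the FAP-like levels of all 4 genes are close in the 2 libraries.

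Across the classes Il6st, Lifr and Osmr tended to stand high together, and Il6ra did not go with them. Over 30 points (15 classes in 2 libraries, on a log2 scale with 10 CPM added) Pearson's r was 0.65 for Lifr with Osmr, 0.63 for Il6st with Lifr and 0.52 for Il6st with Osmr, against 0.20 for Il6ra with Il6st, 0.20 for Il6ra with Lifr and -0.13 for Il6ra with Osmr. The points share their libraries and their EC-like and stromal classes, so these are descriptions. By the same measure, among 13077 genes, the patterns most like that of Il6 were those of Bace2 (0.74), Plb1 (0.74) and Nhsl2 (0.72), and those most like Lif were Cercam (0.85), Steap3 (0.85) and Adgrg2 (0.85). Clcf1 was most like Cd82 (0.86), Hs6st3 (0.81) and Myod1 (0.79), the last a transcription factor of the muscle lineage. Socs3 was most like Gadd45g (0.81), Zfp36 (0.81) and Cdkn1a (0.80), which are known as genes induced rapidly by stress. Osm had too few UMIs.

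Socs3, the feedback inhibitor (chr11:117966079-117970047, minus strand), gave the plainest difference between the libraries. Over all cells it held 493 CPM in DMSO (486 to 500) and 341.5 CPM in MVC (335.5 to 347.7), a ratio of 0.692 (0.677 to 0.708) that stays just inside the fold. In FAP-like cells it was 658 CPM (644 to 672) and 340 CPM (330 to 350), a ratio of 0.516 (0.498 to 0.535), and 75.3% of the cells had a UMI in DMSO (72.7% to 77.8%) against 56.1% in MVC (53.3% to 58.7%). At equal depth these shares were 47.3% and 31.2%. All 4 FAP-like clusters were lower in MVC. Cluster 1 held 1002 CPM (971 to 1034) and 389 CPM (374 to 406), a ratio of 0.389 (0.369 to 0.409). Cluster 3 held 633 and 355 CPM (0.561), cluster 16 322 and 204 CPM (0.634), and cluster 13 374 and 264 CPM (0.705). In cluster 1 the Il6 and Socs3 ratios were therefore both past the fold and lower, while in clusters 13 and 16 Il6 was higher and Socs3 lower in MVC.

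Outside the FAP-like cells, Socs3 divided the classes. It was past the fold and lower in MVC in lymphatic EC-like cells (663 and 244 CPM, 0.368, 0.299 to 0.450), Schwann-like cells (523 and 178 CPM, 0.341, 0.274 to 0.422), cluster 19 (0.378), cluster 18 (437 and 283 CPM, 0.647) and MuSC-like cells (172 and 113 CPM, 0.656, with a log2 ratio of -0.32 and inside the fold without the 3 cells with the most UMIs in each library). Of the 15 classes 6 were lower and 0 higher. In the blood vessel endothelium the ratio was at or above 1, at 710 and 723 CPM in capillary (1.02, 0.972 to 1.07), 313 and 362 CPM in arterial (1.16, 1.03 to 1.30) and 343 and 441 CPM in venous EC-like cells (1.29, 1.16 to 1.43). Perineurial-like cells, 37 and 52 in number, had 1032 and 384 CPM. Tenocyte-like cells were alike in both libraries (400 and 375 CPM, 0.936), and pericyte-like and macrophage-like cells were lower inside the fold (0.678 and 0.672).

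Genes known to be induced by tissue dissociation, a list of 39 immediate-early and heat-shock genes, were read beside Socs3 in the same classes. In FAP-like cells 1 of 39 was past the fold and higher, 2 lower, and the median log2 ratio was 0.02. Of all genes there, 14.7% were higher and 5.14% lower. In Schwann-like cells 2 of the 38 genes with enough UMIs were higher and 14 lower, with a median of -0.39. Of all genes in that class, 17.2% were higher and 10.7% lower. Lymphatic EC-like cells had 1 of 37 higher and 5 lower, with a median of -0.18, beside 13.7% and 15.7% of all genes. The lower count in the lymphatic class is thus near its share over all genes. In venous EC-like cells 7 of 38 were higher and 0 lower, with a median of 0.20, beside 11.5% and 14.2% of all genes. The part of these genes in the Socs3 ratios of the FAP-like, Schwann-like, lymphatic and venous classes was not tested. Nor was that of the FAP markers, whose summed level in the Schwann-like class was 3552 CPM in DMSO and 1978 CPM in MVC.

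Stat3 (chr11:100885098-100939540, minus strand), which overlaps Stat5a on the other strand, was detected in 86.5% of DMSO and 81.5% of MVC cells at 758 and 774 CPM (1.02, 1.005 to 1.04). It was near-level in FAP-like cells (680 and 718 CPM), higher in MVC inside the fold in capillary EC-like cells (881 and 1058 CPM, 1.2) and lower inside the fold in tenocyte-like cells (761 and 597 CPM, 0.785). Only the T/NK-like class of the 15 was past the fold, at 786 and 1390 CPM (1.77, 1.61 to 1.94). In that class all 8 FAP markers were higher in MVC (577 and 2532 CPM summed) and called doublets made 5.58% and 16.4% of the cells, and their part in the Stat3 ratio was not tested. The transcript of the transcription factor thus stayed level in FAP-like cells where that of Socs3 did not.

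**Figure D3:**
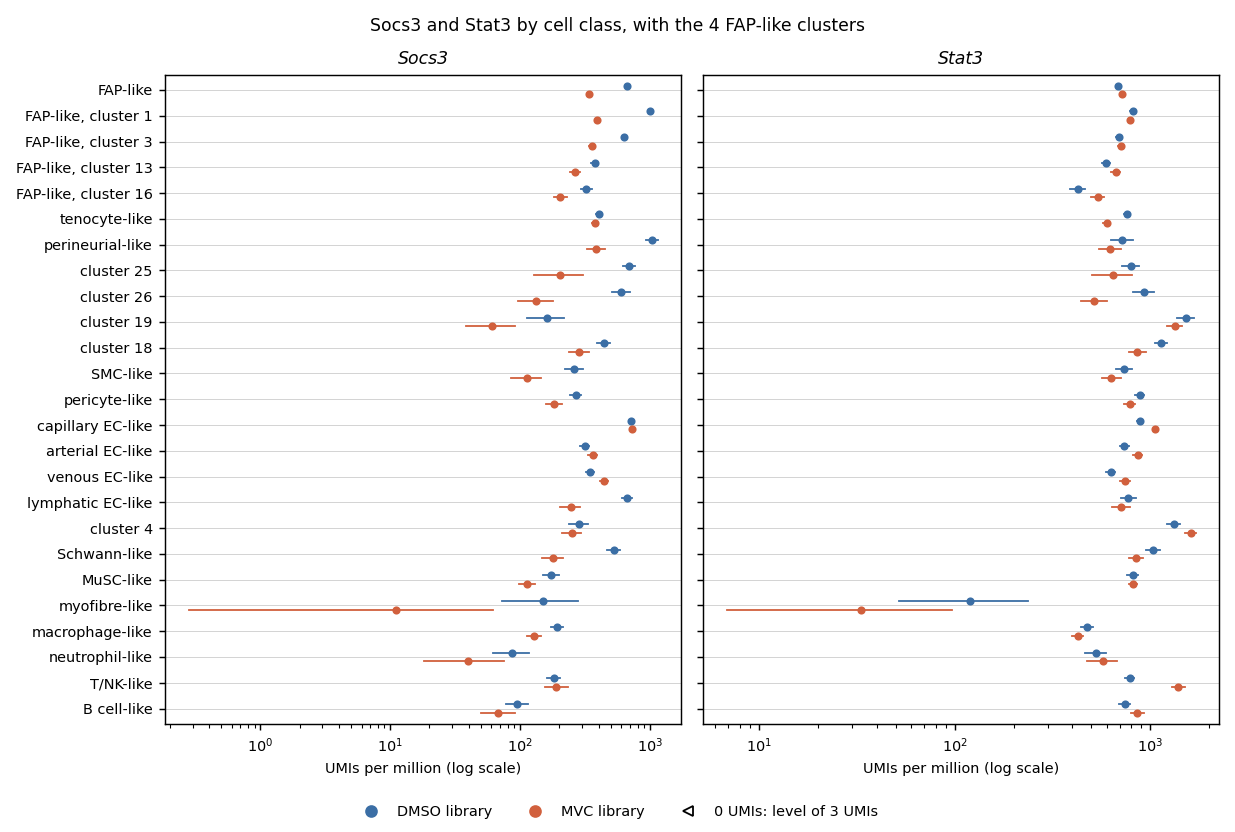
Levels of Socs3 and Stat3 in each class and in the 4 FAP-like clusters, in CPM on a log axis, with exact Poisson 95% intervals as bars. Socs3 is lower in the MVC library in all 4 FAP-like clusters, and in cluster 1 it stands at 1002 CPM in DMSO and 389 CPM in MVC, whereas Stat3 stays close.

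Socs3 and Il6 were also read cell by cell after thinning to 2000 UMIs. In FAP-like cluster 1 a Socs3 UMI was present in 70.0% of the cells with an Il6 UMI (58.7% to 79.7%) and 46.0% of those without (40.4% to 51.6%) in DMSO, and in 56.3% (45.3% to 66.9%) and 28.4% (24.5% to 32.5%) in MVC. The lower share in MVC thus held among cells with and without Il6, although the intervals overlap among the cells with Il6. In cluster 3, and in the classes or clusters read outside the FAP-like cells, the shares with and without Il6 were closer and their intervals overlapped. Examples were cluster 3 (53.6% and 46.9% in DMSO, 35.3% and 31.7% in MVC), venous EC-like cells (37.9% and 36.1%, 44.3% and 38.0%) and tenocyte-like cells (37.8% and 32.0%, 28.7% and 28.4%). The whole FAP-like class, which includes cluster 1, had 54.7% (49.6% to 59.7%) and 43.2% (39.45% to 46.9%) in DMSO. In MVC it had 38.6% (33.8% to 43.6%) and 27.7% (24.7% to 30.9%). Over all FAP-like cells, which join clusters that differ in both genes, a Lif UMI was present in 11.1% of cells with Il6 (8.21% to 14.7%) and 3.74% of those without (2.46% to 5.43%) in DMSO, and in 9.02% and 2.01% in MVC. Within cluster 1 the shares were 2.50% and 2.80% in DMSO and 3.45% and 1.58% in MVC, and within cluster 3 they were 13.6% (9.39% to 18.9%) and 6.78% (3.55% to 11.5%) in DMSO and 13.9% (9.29% to 19.7%) and 4.19% (1.70% to 8.45%) in MVC. In tenocyte-like cells the shares were 4.44% and 4.12% in DMSO and 15.4% (9.82% to 22.6%) and 4.84% (2.73% to 7.85%) in MVC. Cells of 1 library are not replicates, and these shares describe the 2 libraries.

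Set against all genes, the members were counted class by class. Over all cells 0 of 10 were higher and 1 lower past the fold, where 9.53% of all genes were higher and 7.54% lower. In FAP-like cells 0 of 9 were higher and 2 lower (Lif and Socs3), with 14.7% and 5.14% of all genes. In tenocyte-like cells 1 of 9 was higher (Lif) and 3 lower (Clcf1, Il6ra and Lifr), with 12.5% and 8.30%. Capillary EC-like cells had 0 of 7 in either direction, with 13.5% and 7.22%, and venous EC-like cells 1 of 8 higher, Lif at 12 and 19 UMIs, with 11.5% and 14.2%. In arterial EC-like cells 0 of 8 were higher and 2 lower (Clcf1 and Il6ra), with 12.2% and 7.09%.

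Schwann-like cells had 0 of 8 higher and 4 lower (Il6, Clcf1, Osmr and Socs3), with 17.2% and 10.7% of all genes. Lymphatic EC-like cells had 1 of 8 higher (Il6ra) and 4 lower (Il6, Clcf1, Lifr and Socs3), with 13.7% and 15.7%. In MuSC-like cells 0 of 8 were higher and 3 lower (Il6, Clcf1 and Socs3), with 14.0% and 12.7%. Macrophage-like and pericyte-like cells each had Il6 higher and 0 lower, of 9 and 6 members, with 15.2% and 8.97% in the former and 14.1% and 8.34% in the latter. Cluster 18 had 0 of 7 higher and 1 lower (Socs3), with 16.8% and 11.7%. In cluster 19, which held 55 DMSO and 120 MVC cells, 2 of 8 were higher (Il6 and Lif) and 3 lower (Lifr, Osmr and Socs3), with 25.1% and 13.3%. Cluster 4 had 0 of 7 higher and 1 lower (Il6), with 25.2% and 11.9%. B cell-like cells had 2 of 7 higher (Il6 and Osmr) and 1 lower (Il6ra), with 17.9% and 12.0%. T/NK-like cells, 197 in DMSO and 61 in MVC, had 3 of 9 higher (Lifr, Osmr and Stat3) and 4 lower (Osm, Clcf1, Il6ra and Il6st), with 19.3% and 17.6%. Under at least 1 alternative the value came inside the fold or turned for Il6 in cluster 4 and in pericyte-like, MuSC-like, macrophage-like, Schwann-like and lymphatic EC-like cells, for Lif in venous EC-like cells, for Clcf1 in arterial EC-like cells, for Il6ra in arterial and lymphatic EC-like cells, for Socs3 in MuSC-like cells and for Osm over all cells. In arterial EC-like cells the log2 ratio of Clcf1 was -0.34 with the mean of each cell's CPM and that of Il6ra -0.43 with classes from each cell's own markers. With so few members in a class, a share near these percentages is not a result about the family.

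**Figure D4:**
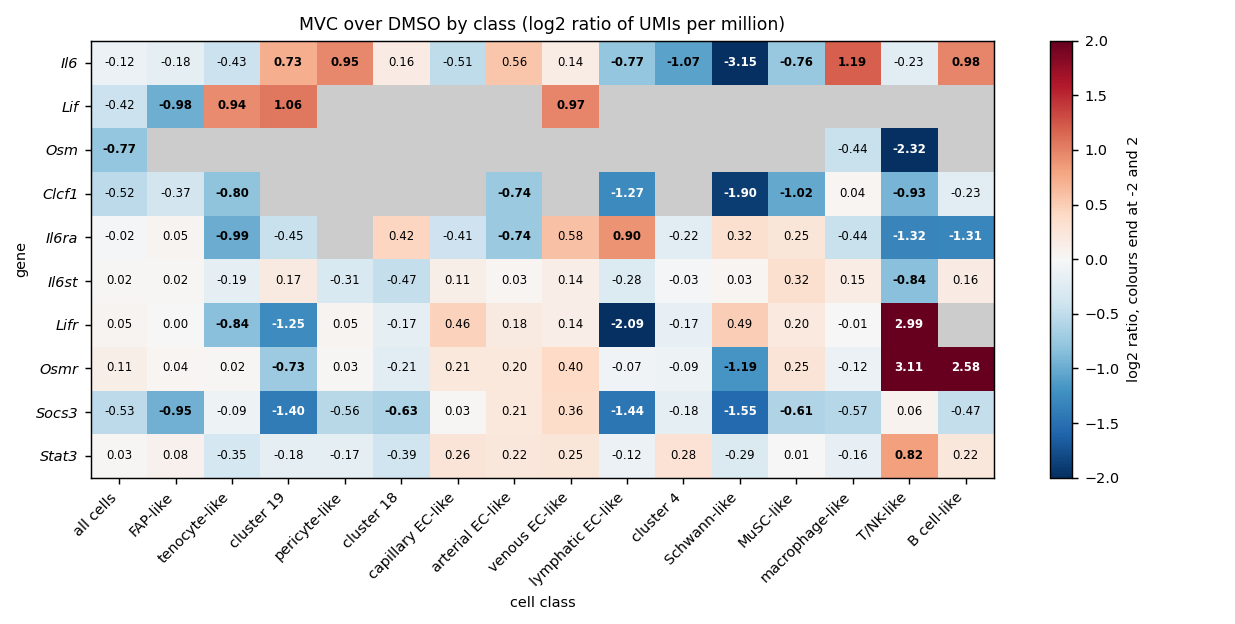
Log2 ratio of MVC over DMSO of each gene (rows) over all cells and in the 15 classes with at least 50 cells in each library (columns), with values past the fold in bold and grey where fewer than 20 UMIs were counted. Socs3 and Lif are below 0 in FAP-like cells, Lif is above 0 and Lifr below 0 in tenocyte-like cells, and Clcf1 is below 0 in MuSC-like cells.

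The remaining pathway was read from a list of 40 genes, of which 37 had enough UMIs in FAP-like cells. There 4 were higher and 5 lower past the fold, with a median log2 ratio of 0.04 against 0.06 over all genes with at least 20 UMIs, of which 14.7% were higher and 5.14% lower. Of the 15 listed genes known as STAT3 targets, all were read in FAP-like cells, where 2 were higher, 5 lower and the median was -0.34. Serpina3n, an inhibitor of serine proteases and an acute-phase gene, had 226 CPM in DMSO (2846 UMIs) and 46.5 CPM in MVC (621 UMIs), a ratio of 0.206 (0.189 to 0.225). Its close copy Serpina3m had 49 and 7 UMIs, and reads of these near-identical genes may not be separated. Lcn2, an iron-sequestering acute-phase protein, had 128 and 72 UMIs (0.531), Timp1, a metalloprotease inhibitor, 87.8 and 57.5 CPM (0.655), and Lrg1 36 and 15 UMIs (0.393). On the other side stood the cell-cycle gene Ccnd1 (9.12 and 15.4 CPM, 1.68) and the acute-phase gene Saa3 (36 and 70 UMIs, 1.84). The genes Pim1, Cebpb, Cebpd and Bcl6 were lower inside the fold, at 0.746, 0.784, 0.787 and 0.756, and Mcl1 was near-level at 0.942. None of the kinase and STAT genes was past the fold in FAP-like cells, among them Jak1 at 618 and 630 CPM and Jak2 at 147 and 217 CPM (1.48).

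Serpina3n was lower in MVC also in tenocyte-like cells (202 and 54.0 CPM, 0.266), lymphatic EC-like cells (332 and 98.7 CPM, 0.297) and Schwann-like cells (300 and 159 CPM, 0.531). Lrg1, which was among the markers that named the venous EC-like class, had 1087 CPM there in DMSO and 444 CPM in MVC (0.409). In venous EC-like cells 2 of the 13 STAT3 target genes read were higher and 2 lower, with a median of -0.0021, where 11.5% of all genes were higher and 14.2% lower, so these counts lie near that background. Schwann-like cells, where 17.2% of all genes were higher and 10.7% lower and the FAP markers were also lower in MVC, had 1 of 11 higher and 6 lower, with a median of -0.63, among them Cebpd at 1766 and 798 CPM (0.452) and Bcl3 at 184 and 86.3 CPM (0.469). Macrophage-like cells had 3 of 13 higher and 5 lower, beside 15.2% and 8.97% of all genes, with Saa3 at 99 UMIs in DMSO and 0 in MVC and Lcn2 at 90 and 7 UMIs. Socs2, an inhibitor of growth hormone signalling, was higher in venous EC-like cells (291 and 467 CPM, 1.61) and lower in macrophage-like cells (54 and 16 UMIs, 0.262). The direction of these genes depended on the class.

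**Figure D5:**
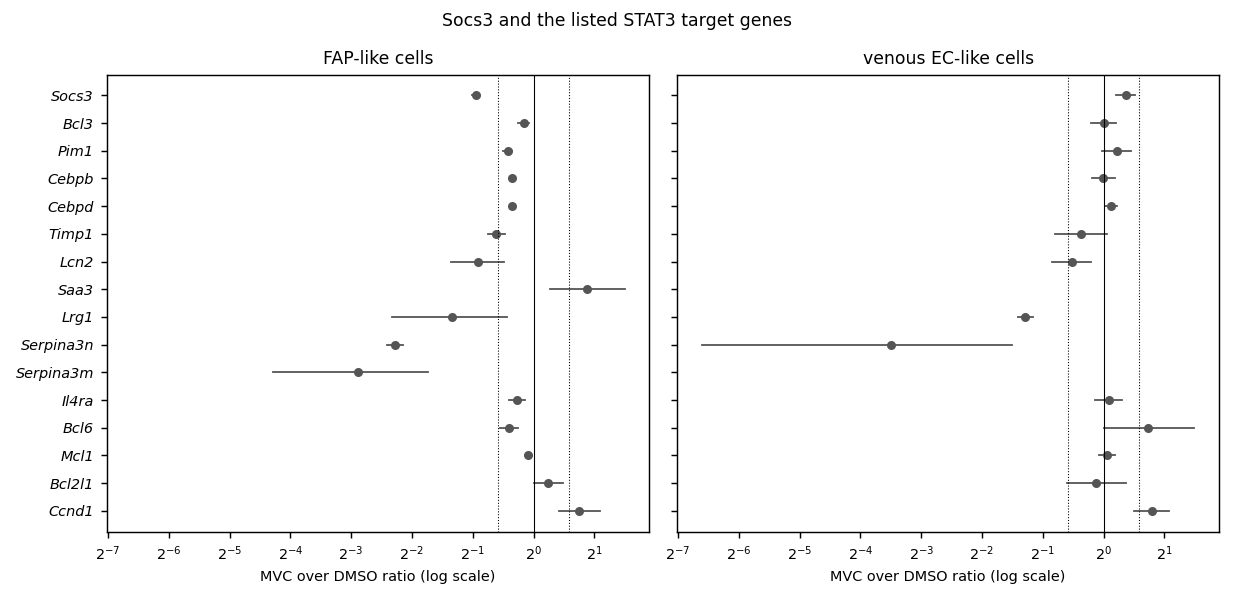
MVC over DMSO ratio of Socs3 and the listed STAT3 target genes in FAP-like and venous EC-like cells, on a log axis, with exact 95% intervals as bars, a solid line at 1 and dotted lines at 1.5 and 1/1.5. In FAP-like cells Serpina3n lies at 0.206 and Socs3 at 0.516, and in venous EC-like cells Lrg1 lies at 0.409 and Socs3 at 1.29.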

How the data were processed

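Single-cell RNA of 1 DMSO and 1 MVC library was analysed from the deposited count matrices, which hold raw UMI counts per gene and cell barcode that the authors made, per the submitters' processing notes, with Cell Ranger 7.0.0 on mm10 (Seurat 5.0.1 is also named there). The handling of intronic reads is not given in the sources used here. Cells with under 500 genes or over 10% mitochondrial UMIs were removed, as in the study's methods, which left total counts of 38748234 (DMSO) and 35518029 (MVC) UMIs. UMIs are molecules, but intervals and floors still cover counting error only.

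Counts were scaled to 10000 per cell and log-transformed, and 2000 variable genes without the genes reported on, 30 principal components and 20 neighbours were clustered by Leiden at resolution 1 (leidenalg 0.10.2, Python 3.11.15, scikit-learn 1.9.0), with no integration of the libraries, whereas the study integrated them. A cluster was named when at least 3 of the markers of a class had a log2 fold of at least 1 and a UMI in 20% of its cells, with a lead of 0.5 over the next class. A class with no raised marker was not counted as the next class. Under the rule without that exception, cluster 7 (capillary EC-like) and cluster 15 (T/NK-like) would be unnamed. Cluster 4 had 4 capillary EC markers raised and a mean log2 fold of 1.046 for that class, against -0.043 for the next. By these thresholds alone it would be capillary EC-like, but it was kept without a name. It was shallow, with a median of 1416 UMIs per cell. Lrg1 is both a marker of the venous EC class and in the STAT3 target list. Doublets were scored against simulated doublets (236 DMSO and 238 MVC cells called) and kept, except in an alternative.

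The genes, the pathway lists and the tests were chosen with earlier results of these data known. All 10 members were reported in every class, other pathway genes by counts and, past the fold with at least 50 UMIs, by name, up to 3 per direction and list, and for Il6, Lif, Osm, Clcf1 and Socs3 the 3 genes of most similar pattern with at least 200 UMIs. Other pathway genes named (in FAP-like cells Lcn2, Timp1, Pim1, Cebpb, Cebpd, Bcl6, Mcl1, Jak1 and Jak2, and those in further classes) were chosen after their values were seen. Some genes of the lists enter the counts but are not reported here by name. Mitochondrial genes were left out of the counts over all genes. A ratio past 1.5 was checked on simulated FAP-like counts of 14903 genes, 200 of them changed 2-fold. There the 95% interval held the true ratio for 95.7% of genes, 94.0% of the changed genes were called, and 5.70% of unchanged genes were called, or 1.57% of those with at least 50 UMIs. Gene positions are from the GENCODE annotation of GRCm38. Intervals were computed with scipy 1.17.1.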

Additional observations from a re-analysis of the deposited data

Results flagged for a closer look

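Of the 10 genes, 5 had ratios past the fold in opposite directions in different classes. The difference between the classes was not tested in any of them, because each group was 1 library. Il6 stood at 2.29 (1.83 to 2.88) in macrophage-like cells and at 0.113 (0.0347 to 0.287) in Schwann-like cells, the latter from 38 and 5 UMIs. Lif stood at 1.92 (1.55 to 2.39) in tenocyte-like cells and at 0.508 (0.448 to 0.575) in FAP-like cells. Il6ra stood at 1.87 (1.03 to 3.47) in lymphatic EC-like cells and at 0.399 (0.226 to 0.662) in T/NK-like cells, and with classes from each cell's own markers the lymphatic EC-like log2 ratio was -0.10. Lifr stood at 7.94 (3.49 to 19.7) in T/NK-like cells, from 9 and 21 UMIs, and at 0.235 (0.148 to 0.359) in lymphatic EC-like cells. Osmr stood at 8.63 (5.50 to 13.9) in T/NK-like cells and at 0.439 (0.345 to 0.556) in Schwann-like cells. In T/NK-like cells all 8 FAP markers were higher in the MVC library, and in Schwann-like cells 2 of 8 were, with a summed level of 3552 CPM in DMSO and 1978 CPM in MVC. Their part in these ratios was not tested.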

How the results depend on the processing

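No paired analysis was possible because each group holds 1 library, and for the same reason no library could be left out. Of 41 ratios past the fold, 29 stayed past it in the same direction under every alternative run. Not all alternatives could be run for each ratio, so some of the 29 were checked less. Among them, Lif in cluster 19 had 3 alternatives, Osm in T/NK-like cells 7 and Il6 in B cell-like cells 8, against 9 for Lif in FAP-like cells. Of all 997 alternative ratios over 128 results, 920 moved by less than the counting interval, 73 moved by more and 4 turned direction. Within FAP-like cells the median gene with at least 50 UMIs stood 0.13 higher in MVC on the log2 scale with nothing added to the levels. Scaling by the median ratio gave log2 values over all cells of -0.18 for Il6, -0.036 for Il6st, -0.0075 for Lifr, 0.055 for Osmr, -0.59 for Socs3 (just past the fold) and -0.029 for Stat3, and in FAP-like cells of -0.31 for Il6, -0.077 for Il6ra, -0.12 for Il6st, -0.13 for Lifr, -0.092 for Osmr, -1.09 for Socs3 and -0.054 for Stat3. With the mean of each cell's own CPM, all cells gave -0.080 for Il6, -0.038 for Lif, 0.069 for Il6st, 0.11 for Lifr, -0.46 for Socs3 and 0.11 for Stat3, and FAP-like cells -0.77 for Lif, -0.071 for Il6ra, -0.042 for Osmr and -1.10 for Socs3. Il6 in FAP-like cells was at -0.10 without doublets, -0.24 with clusters drawn after centring within each library, -0.23 at resolution 2 and -0.28 with classes from each cell's own markers, and Lif there was at -1.37 and -1.24 under the centring and resolution 2. The direction turned for Il6 in pericyte-like cells (-0.17) and Il6ra in lymphatic EC-like cells (-0.10) with own markers, for Il6 in MuSC-like cells (0.11) without the 3 top cells of each library, and for Lif in venous EC-like cells (-0.11) with the mean of each cell's CPM. With each cell thinned to 2000 UMIs, the MVC minus DMSO difference in the share of cells turned to 0.0568 points for Osm in macrophage-like, 0.902 for Il6ra and 0.187 for Stat3 in FAP-like, -0.516 for Lifr in T/NK-like and 2.08 for Osmr in capillary EC-like cells. The cause of these shifts was not tested. Depth limits Lif, Osm and Clcf1, which had under 20 UMIs in 11, 13 and 6 of the 15 classes.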

Other observations

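Other ligands and receptor chains of the family, read from the list of pathway genes, were scarce or narrowly placed. Cntf, the ciliary neurotrophic factor, had 84 UMIs in DMSO and 89 in MVC, of which Schwann-like cells held 47 and 43 (80.1 and 62.9 CPM). Its receptor chain Cntfr stood at 76.9 and 69.9 CPM in tenocyte-like cells (302 and 281 UMIs) and 25.3 and 27.3 CPM in FAP-like cells (319 and 365 UMIs), with 0 UMIs in macrophage-like cells of either library. Il11 had 117 and 101 UMIs, and cluster 25, which carried much of the DMSO library's Lif, held 34 of them in DMSO and 0 in MVC. The IL-11 receptor chain Il11ra1 followed the stroma, at 151 and 177 CPM in FAP-like and 169 and 213 CPM in tenocyte-like cells against 11.7 and 13 CPM in capillary EC-like cells. Ebi3, a subunit of IL-27, had 77 and 46 UMIs, of which macrophage-like cells held 35 and 33, and Il31 had 9 and 12 UMIs in all. Il27 in tenocyte-like cells stood at 29.3 CPM in DMSO and 11.9 CPM in MVC, a ratio of 0.407.

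The kinase gene Jak1 was level over all cells (651 and 629 CPM) and past the fold and lower in MVC in lymphatic EC-like cells, at 1079 and 569 CPM (0.527). Stat5a and Stat5b, which act beside Stat3 downstream of JAK kinases, were both higher in MVC in MuSC-like cells. Their levels were 69.0 and 123 CPM (1.78) and 72.6 and 129 CPM (1.77). In that class 21 of 39 dissociation-induced genes were also higher, beside 14.0% of all genes. Stat5a was higher in venous EC-like cells (57.9 and 109 CPM, 1.89) and lower in Schwann-like cells (30 and 12 UMIs, 0.343).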
